A study of Mus musculus with 8 samples.

Results

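The mRNAs of 34 genes for protein folding, quality control and entry into the secretory pathway of the endoplasmic reticulum (ER) were examined in naive CD4 T cells and in effector Th1, Th2 and Th17 cells. The genes were listed by name and no measured value enters the list, but it was drawn up with earlier results of these data known. All 34 were found among the 23284 genes in the expression tables. All 34 also passed the minimum mean expression used for testing, which left 11198 genes. They fall into 6 roles: 9 luminal chaperones and co-chaperones, 6 lectin chaperones and disulfide isomerases, 3 sensors of the unfolded protein response with the transcription factor XBP1, 4 genes of ER-associated degradation, 7 genes of the translocon and the TRAP complex, and 4 subunits of signal peptidase.

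RNA was sequenced from 8 libraries, 2 for each of the 4 groups. All cells came from DO11.10 Tg mice, whose T cells carry a transgenic TCR for an OVA peptide. Naive cells were splenic CD44low CD62Lhi CD4+ cells taken from a cell sorter without culture. The 3 effector subsets were grown from such cells for 6 days with OVA peptide and irradiated splenocytes depleted of T cells. Th1 conditions were IL-12 (100 U/ml), IL-2 culture sup (30 U/ml) and anti-IL-4 Ab (1 µg/ml). Th2 conditions were IL-4 (100 U/ml), IL-2 culture sup (30 U/ml) and anti-IFN-γ Ab (10 µg/ml). Th17 conditions combined 3 cytokines at 10 ng/ml, namely IL-23, IL-6 and IL-1β, with both of these antibodies at 10 µg/ml, and the labels name no IL-2 for them. Culture, stimulation and subset therefore cannot be told apart from one another in a comparison with naive cells, and the same 2 naive libraries serve in all 3 of those comparisons. The labels do not say whether libraries of a group came from separate animals or cultures, so the p-values measure only the spread between these libraries, which may be technical.

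Expression was given as FPKM, which scales the fragments of each gene to its transcript length and to the library size, so that levels can be compared between genes. The tables hold no fragment counts, so the depth of each library is unknown here. The confidence interval deposited with each FPKM had a half-width of 0.712% to 20.3% of the value over the 34 genes and 8 libraries, which covers the estimation error of 1 library only. Across the genes tested, Pearson's r between the 2 libraries of a group was 0.953 to 0.960 on the log2(FPKM + 1) scale. The 7 T cell markers summed to 2386 to 2402 FPKM in naive, 1651 to 1850 in Th1, 1358 to 1374 in Th2 and 1296 to 1496 in Th17 libraries, so they were lower in every effector library, and the part of this shift in the results was not tested. The Th1, Th2 and Th17 marker lists were each highest in both libraries of their own subset, and the 5 naive cell markers summed to 1783 to 1798 FPKM in naive and 128 to 441 in effector libraries. Differences below are on the log2(FPKM + 1) scale with their standard error (SE), from limma fitted to all 8 libraries with Benjamini-Hochberg adjustment over the 11198 genes, and a gene was called at an adjusted p under 0.05. This scale understates the change of genes with low FPKM.

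Proteins bound for secretion or the cell surface enter the ER through the SEC61 channel, lose their signal peptide, receive N-linked glycans and fold with the help of chaperones and disulfide isomerases. When unfolded protein accumulates, the sensors IRE1, PERK and ATF6 start the unfolded protein response, in which IRE1 splices the mRNA of XBP1 and ATF6 and XBP1 raise the transcription of folding and degradation genes. Effector T cells secrete cytokines, and the same pathway is best known from plasma cells, which secrete antibody. FPKM of a gene sums its transcripts, so spliced and unspliced Xbp1 mRNA were not separated here.

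ATF6 and XBP1 act through short promoter elements, and these were looked for in the reference sequence before the expression values are described. RefSeq promoter windows of GRCm38.p6, from 250 bases before to 50 bases after the transcription start, were matched for 27 of the 34 genes. No window was found for Sec61a1, Ssr2, Atf6, Sec11c, Hyou1, Manf and Spcs3. The ER stress response element (ERSE, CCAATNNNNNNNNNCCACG on either strand) was in the window of 8 of these 27, or 29.6%, compared with 24 of 15707 genes, or 0.153%. Those 8 were Hspa5, Hsp90b1, Dnajc3, Creld2, Calr, Canx, Pdia6 and Syvn1. The shorter ERSE-II (ATTGGNCCACG) was in 2 of 27 windows, those of Dnajb11 and Herpud1, compared with 7 of 15707 (0.0446%). The core of the XBP1-bound element (TGACGTGG) was in 0 of 27 windows and in 0.872% of all. The letters CCACG alone, which also lie within ERSE and ERSE-II, were in 21 of 27 windows compared with 41.4% of all. A match describes letters in a window and is not evidence of binding. The list was chosen to include genes of the unfolded protein response, so these shares are a description and not an independent test. Of the 16 genes with a window that were higher than naive in all 3 subsets, 5 held ERSE. Of the 3 that were lower in all 3, 1 held ERSE and 1 held ERSE-II. Elements from 4 genes that rose and from 3 that fell in at least 1 subset are shown with 15 bases on each side, 5′ to 3′ on the strand of the gene and with the element in capitals. The element of Herpud1 is ERSE-II and the others are ERSE. Coordinates are those of GRCm38.p6.
Hspa5, chr2:34772010-34772058, plus strand: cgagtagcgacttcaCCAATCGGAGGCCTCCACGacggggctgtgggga
Hsp90b1, chr10:86705518-86705566, minus strand: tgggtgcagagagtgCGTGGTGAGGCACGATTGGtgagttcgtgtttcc
Calr, chr8:84847060-84847108, minus strand: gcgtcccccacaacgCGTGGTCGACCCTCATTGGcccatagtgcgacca
Pdia6, chr12:17266476-17266524, plus strand: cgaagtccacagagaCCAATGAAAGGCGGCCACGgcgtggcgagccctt
Dnajc3, chr14:118937812-118937860, plus strand: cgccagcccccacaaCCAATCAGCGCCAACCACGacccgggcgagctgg
Herpud1, chr8:94386362-94386402, plus strand: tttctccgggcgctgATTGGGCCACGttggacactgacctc
Syvn1, chr19:6046517-6046565, plus strand: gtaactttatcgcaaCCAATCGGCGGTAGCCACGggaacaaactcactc
In the first 4 of these, from genes that were higher in all 3 effector subsets, the element began 65 bases before the start in Hspa5, 107 in Hsp90b1, 162 in Calr and 98 in Pdia6, and in Hsp90b1 and Calr it reads on the opposite strand. Hsp90b1 held a further ERSE that began 212 bases before the start. In Dnajc3 the element began 105 bases before the start, in Herpud1 the ERSE-II began 52 bases before it, and in Syvn1 the ERSE began 44 bases before it. All 6 effector libraries of Dnajc3, Herpud1 and Syvn1 lay below both naive libraries, as described with their values below, although for Syvn1 the fall passed the threshold in Th1 cells alone.

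Most of the 34 genes were higher in effector than in naive cells. In Th1 cells 26 were called higher and 4 lower, where 33.8% of all genes tested were called higher and 33.5% lower. In Th2 cells 25 were called higher and 5 lower, against 31.8% and 38.7% of all genes. In Th17 cells 22 were called higher and 4 lower, against 37.5% and 29.8%. For Th1, Th2 and Th17 cells, the median difference of the 34 genes was 0.76, 0.81 and 0.59, and that of all genes tested was -0.014, -0.11 and 0.077. In all 3 subsets together, 21 genes were called higher in each, where 24.8% of all genes were, and 3 were called lower in each, where 23.8% of all genes were. For 24 of the 34 genes every effector library lay above both naive libraries, and for 5 every effector library lay below them, where 30.5% and 31.1% of all genes tested were above and below in this way. A single gene, Eif2ak3, was called higher in one subset and lower in another, as 3.47% of all genes were, and Spcs1 was called in none. The members were a highly expressed group, with a median of the mean FPKM of 54.5 compared with 11.9 over all genes tested.

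**Figure D1:**
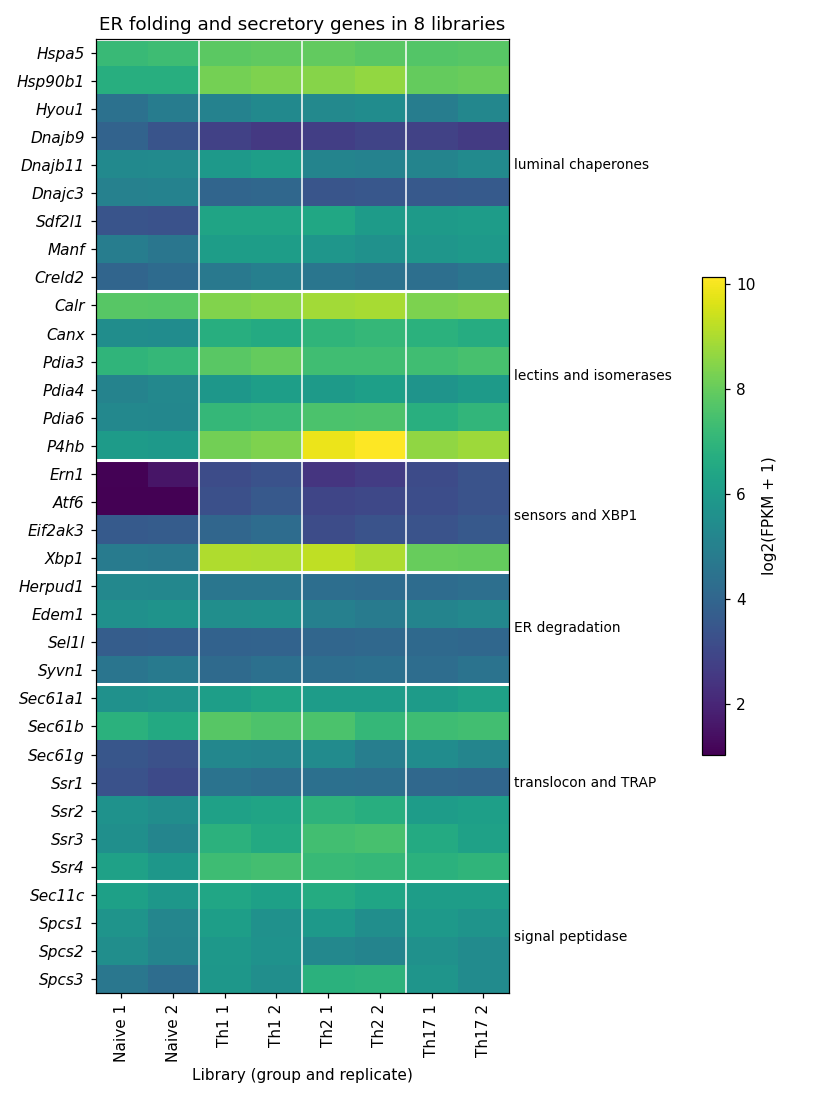
log2(FPKM + 1) of the 34 genes (rows, grouped by role) in the 8 libraries (columns), from dark (low) to yellow (high). Most rows are brighter in the 6 effector libraries than in the 2 naive libraries, P4hb is brightest in the Th2 libraries, and Dnajb9, Dnajc3 and Herpud1 are darker in all effector libraries.

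Summed over the 34 genes, FPKM was 1599.6 ± 56.0 for naive, 3634 ± 71.8 for Th1, 4573 ± 20.5 for Th2 and 3059.7 ± 104 for Th17 cells (SD, n = 2), which is 2.27, 2.86 and 1.91 times the naive sum. Xbp1 and P4hb carried much of the rise, and without them the sums were 1.86, 1.98 and 1.58 times the naive sum. The sum over the lectin chaperones and isomerases rose most in Th2 cells, from 524 ± 2.70 in naive cells to 2052 ± 161. P4hb alone had a mean FPKM of 63.3 in naive and 1028 in Th2 cells, and the sum of this role without it was not computed. Calr, Canx, Pdia4 and Pdia6 also had their highest mean in Th2 cells, and Pdia3 had it in Th1 cells. The sum over the ER-associated degradation genes was 124 ± 4.61 for naive, 102 ± 3.59 for Th1, 82.4 ± 1.79 for Th2 and 91.2 ± 5.55 for Th17 cells (SD, n = 2), with every effector library below the naive ones. Fewer cells with an mRNA and less mRNA in each cell cannot be told apart in such bulk libraries.

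**Figure D2:**
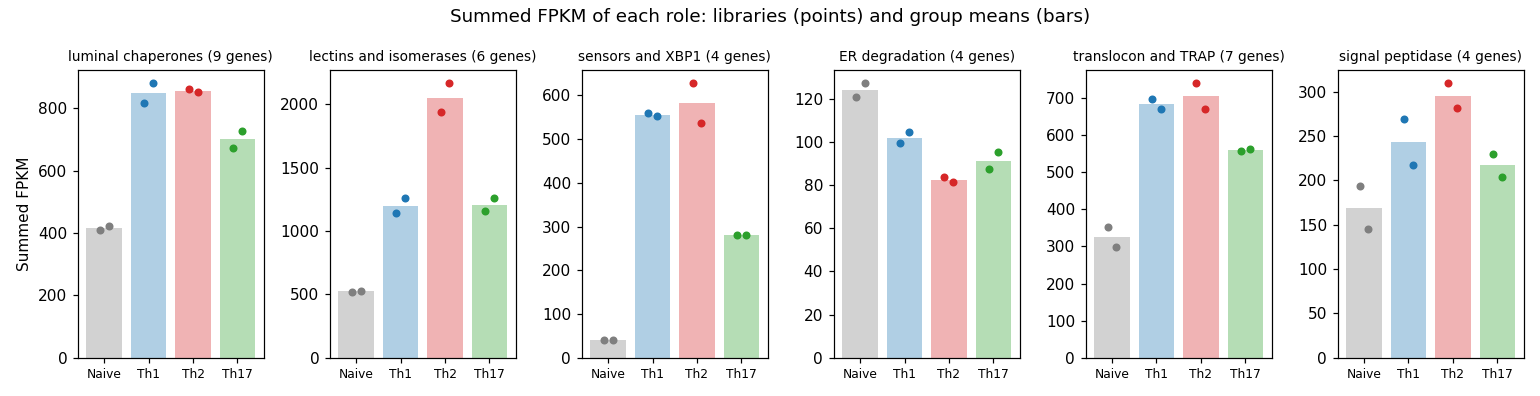
Summed FPKM of each of the 6 roles in every library (points) with the group mean (bars), for 2 libraries per group. The sums of the chaperones, the isomerases, the sensors with Xbp1, the translocon and signal peptidase were higher in effector than in naive means, and the sum of the degradation genes was lower.

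Markers of antibody-secreting cells and of other cell types were examined, because mRNA of such cells would count in these libraries. Of 5 plasma cell markers, 4 were in the tables, and they summed to 0.767 to 0.865 FPKM in naive, 1.24 to 1.26 in Th1, 7.53 to 7.85 in Th2 and 4.82 to 10.4 in Th17 libraries. Among these 4, 1 was at 0 in both libraries of every group, and 1 of them, Derl3, is itself a gene of ER-associated degradation. The 6 B cell markers summed to 2.36 to 12.4 FPKM in all libraries, with the lowest sums in Th1 cells and the highest in Th17 cells. The 9 myeloid and dendritic markers summed to 12.3 to 13.0 in naive, 9.15 to 9.85 in Th1, 21.2 to 28.4 in Th2 and 19.2 to 19.5 in Th17 libraries. The 4 erythroid markers summed to 6.19 to 7.65 in naive libraries and to less than 1 FPKM in effector libraries. These sums moved between groups, and their part in the results was not tested.

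**Figure D3:**
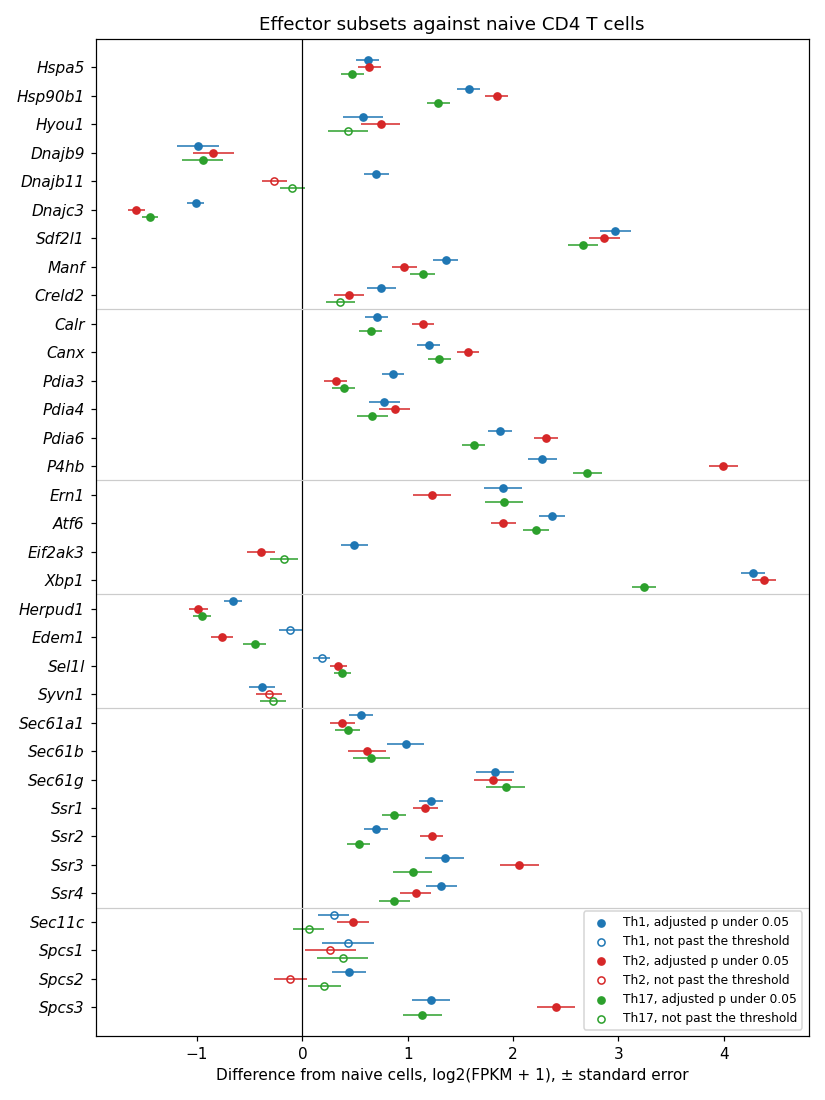
Difference of each effector subset from naive cells on the log2(FPKM + 1) scale with its standard error, for 34 genes in the order of their roles. Filled points passed an adjusted p under 0.05 (limma, 2 libraries per group). Xbp1, P4hb and Sdf2l1 lie farthest to the right, and Dnajc3, Dnajb9 and Herpud1 to the left of 0 in all 3 subsets.

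Among the 9 luminal chaperones and co-chaperones, 7 rose and 2 fell in Th1 cells. In Th2 cells 6 rose and 2 fell, and in Th17 cells 4 rose and 2 fell. Of all genes tested, 33.8%, 31.8% and 37.5% were called higher and 33.5%, 38.7% and 29.8% lower in Th1, Th2 and Th17 cells. In Th17 cells the counts of this role were near those shares. Hspa5, which encodes BiP, the main HSP70 chaperone of the ER, was already abundant in naive cells and rose modestly, its mean FPKM being 152 ± 8.91 for naive, 234 ± 11.2 for Th1, 236 ± 16.4 for Th2 and 211 ± 9.53 for Th17 cells (SD, n = 2). Its differences were 0.62, 0.63 and 0.47 in Th1, Th2 and Th17 cells (adjusted p = 0.00189, 0.00153 and 0.00666, limma).

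Hsp90b1, on chr10:86690841-86705444 of mm10, encodes GRP94, the HSP90 chaperone of the ER, and had the highest mean level of the luminal chaperones. Its FPKM was 105 and 105 in the 2 naive samples, 303 and 329.6 for Th1 and 359 and 402 for Th2 cells, while Th17 cells had 250.2 and 266. All effector libraries were above the naive ones, with Th2 highest and Th17 lowest among them and no overlap between subsets. The differences from naive cells were 1.58 ± 0.11 for Th1 cells, 1.85 ± 0.11 for Th2 cells and 1.29 ± 0.11 for Th17 cells (adjusted p = 1.89e-05, 7.59e-06 and 4.64e-05, limma). Of its exon bases, 15.7% are overlapped by 3 other annotated genes together, 1810014B01Rik first among them, so a part of the reads could be shared.

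Sdf2l1, on chr16:17130138-17132383, encodes a partner of the BiP co-chaperone ERdj3 and showed the largest difference from naive cells in this role. FPKM values were 9.57 and 9.12 in the 2 naive samples, 80.3 and 79.6 for Th1 and 87.1 and 63.6 for Th2 cells, while Th17 cells had 63.2 and 65.8. The Th2 libraries overlapped those of Th1 and of Th17, and all effector libraries were more than 6 times the naive values. Both Th1 libraries were above both Th17 libraries, though that difference of 0.31 did not pass (adjusted p = 0.186, limma). Differences from naive cells were 2.97 ± 0.15 for Th1 cells, 2.87 ± 0.15 for Th2 cells and 2.66 ± 0.15 for Th17 cells (adjusted p = 4.02e-06, 3.81e-06 and 5.81e-06, limma). Manf, a secreted protein that binds BiP, rose as well, by 1.36, 0.97 and 1.14 in Th1, Th2 and Th17 cells. Dnajb11, which encodes ERdj3 itself, was called higher in Th1 cells and in no other subset, its mean FPKM being 40.0 ± 0.979 for naive, 65.8 ± 5.64 for Th1, 33.1 ± 1.22 for Th2 and 37.6 ± 4.85 for Th17 cells (SD, n = 2).

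The 2 luminal genes that fell both encode J-domain co-chaperones of BiP. Dnajc3, on chr14:118937932-118981702, encodes P58IPK, and its FPKM was 31.8 and 32.2 in the 2 naive samples, 15.1 and 15.7 for Th1 and 9.83 and 10.3 for Th2 cells, while Th17 cells had 11.0 and 11.2. The naive libraries were the highest, the Th1 libraries followed, and the Th2 and Th17 libraries lay close together below them. The differences were -1.01 ± 0.079 for Th1 cells, -1.58 ± 0.079 for Th2 cells and -1.45 ± 0.079 for Th17 cells (adjusted p = 3.71e-05, 3.58e-06 and 5.68e-06, limma), so the naive mean was 2.08, 3.18 and 2.88 times the effector means. Dnajb9, on chr12:44205897-44210068, encodes ERdj4, a textbook target of XBP1. Its FPKM was 14.3 and 9.47 in the 2 naive samples, 5.90 and 4.90 for Th1 and 5.64 and 6.52 for Th2 cells, while Th17 cells had 6.16 and 5.05. Both naive libraries were above all effector libraries, but they differed from each other more than the effector libraries did. Its differences were -0.99 ± 0.20 for Th1 cells, -0.84 ± 0.20 for Th2 cells and -0.95 ± 0.20 for Th17 cells (adjusted p = 0.00358, 0.00695 and 0.00438, limma).

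Hyou1, the nucleotide exchange factor GRP170, and Creld2, an ER protein with isomerase-like activity, were called higher in Th1 and Th2 cells. Hyou1 lost its Th1 call without naive replicate 1 or Th1 replicate 2, without the filter on low values and in the fit of 2 groups, and its Th2 call without naive replicate 1 or Th2 replicate 2. Creld2 lost its Th2 call without naive replicate 1 or Th2 replicate 1. In Th17 cells their differences were 0.43 and 0.36 (adjusted p = 0.0785 and 0.054, limma). With the replicate number as a block in the fit, both passed in Th17 cells as well (adjusted p = 0.00413 and 0.0288). Under that block the fall of Dnajb11 in Th2 cells, -0.27, also passed, with an adjusted p of 0.0439 compared with 0.0777 without it.

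All 6 lectin chaperones and disulfide isomerases were called higher in all 3 subsets, where 24.8% of all genes tested were. Pdia3, however, lost its call in Th2 or Th17 cells without either naive library, either Th2 library or Th17 replicate 2. With quantile normalization Pdia3 lost it as well. P4hb, on chr11:120560304-120572936, encodes protein disulfide isomerase, which is also a subunit of prolyl 4-hydroxylase. Its FPKM was 64.9 and 61.6 in the 2 naive samples, 289 and 334 for Th1 and 934 and 1121 for Th2 cells, while Th17 cells had 395 and 442. The 4 groups did not overlap, and both Th2 libraries had more than 2 times the FPKM of any other library. Differences from naive cells were 2.28 ± 0.14 for Th1 cells, 3.99 ± 0.14 for Th2 cells and 2.71 ± 0.14 for Th17 cells (adjusted p = 1.05e-05, 6.78e-07 and 4.04e-06, limma), and the Th2 mean was 16.2 times the naive mean, 3.30 times that of Th1 and 2.45 times that of Th17 cells.

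Pdia6, a further thioredoxin-like isomerase, had a mean FPKM of 37.4 ± 0.341 for naive, 139.8 ± 8.46 for Th1, 189.8 ± 2.36 for Th2 and 118 ± 14.4 for Th17 cells (SD, n = 2), with differences of 1.87, 2.31 and 1.62 from naive in Th1, Th2 and Th17. Calr and Canx encode calreticulin and calnexin, the lectins that hold monoglucosylated glycoproteins in the folding cycle. Calr was the most abundant of the 34 mRNAs per length in naive cells, with 215 ± 4.07 for naive, 352 ± 23.4 for Th1, 476 ± 13.7 for Th2 and 338 ± 18.8 for Th17 cells. Canx had 43.2 ± 0.581 for naive, 100.5 ± 5.76 for Th1, 131 ± 7.78 for Th2 and 108 ± 9.90 for Th17 cells. Pdia3, which encodes the isomerase ERp57 that works with both lectins, was highest in Th1 cells, with 129 ± 6.88 for naive, 236 ± 19.9 for Th1, 161 ± 0.736 for Th2 and 170.0 ± 11.1 for Th17 cells. Pdia4 (ERp72) was not called between subsets, its differences from naive being 0.78, 0.88 and 0.66 in Th1, Th2 and Th17 cells. In this role the smallest difference from naive cells was that of Pdia3 in Th2 cells, 0.32 (adjusted p = 0.0347, limma).

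Of the sensors and XBP1, Xbp1 rose most of all 34 genes. Xbp1, on chr11:5520967-5525872, encodes the transcription factor that IRE1 activates by splicing. Its FPKM was 26.9 and 24.9 in the 2 naive samples, 527 and 514 for Th1 and 608 and 516 for Th2 cells, while Th17 cells had 256 and 250.2. Naive cells had the lowest values, the Th17 libraries lay between, and the Th1 and Th2 libraries overlapped at the top. Differences from naive cells were 4.28 ± 0.11 for Th1 cells, 4.38 ± 0.11 for Th2 cells and 3.24 ± 0.11 for Th17 cells (adjusted p = 3.51e-07, 2.55e-07 and 8.02e-07, limma), with means 20.1, 21.7 and 9.77 times the naive mean. In naive cells it ranked 22 of the 34 genes by FPKM, and in Th1 cells it ranked 1.

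Ern1, which encodes IRE1, and Atf6 were the lowest of the 34 mRNAs in naive cells, with FPKM means of 1.53 and 1.06. In Th1, Th2 and Th17 cells, Ern1 rose to 8.38 ± 0.815, 4.87 ± 0.594 and 8.46 ± 1.19, and Atf6 to 9.71 ± 1.53, 6.74 ± 0.269 and 8.62 ± 0.742 (SD, n = 2). Both were called higher in all 3 subsets, by 1.91, 1.23 and 1.91 and by 2.37, 1.91 and 2.22. The third sensor did not follow them. Eif2ak3, on chr6:70844527-70905240, encodes PERK, which slows translation by phosphorylating eIF2α. Its FPKM was 11.1 and 11.9 in the 2 naive samples, 15.4 and 17.9 for Th1 and 7.80 and 9.27 for Th2 cells, while Th17 cells had 9.21 and 11.0. Both Th1 libraries were above the naive libraries, both Th2 libraries were below them, and both Th17 libraries were also below them, one by little. The differences were 0.49 ± 0.13 for Th1 cells, -0.39 ± 0.13 for Th2 cells and -0.17 ± 0.13 for Th17 cells (adjusted p = 0.0128, 0.0305 and 0.271, limma). The rise in Th1 cells no longer passed without naive replicate 1 or Th1 replicate 2. The fall in Th2 cells no longer passed without either naive library or Th2 replicate 1, with median scaling, with quantile normalization or in a fit of these 2 groups alone.

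**Figure D4:**
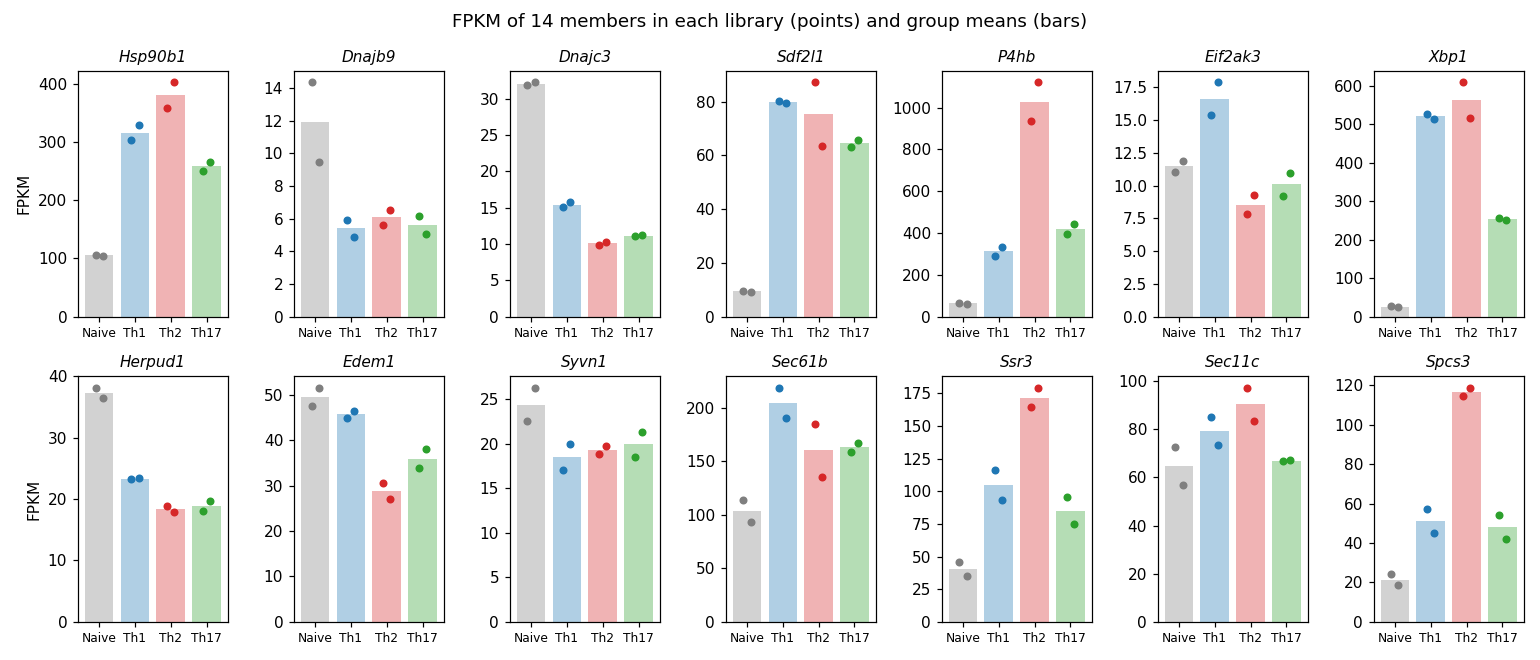
FPKM of 14 genes in each library (points) and group means (bars, from 0), for 2 libraries per group, each panel with its own axis. P4hb, Ssr3 and Spcs3 are highest in both Th2 libraries, Xbp1 is lower in Th17 than in Th1 and Th2, and Dnajb9, Dnajc3, Herpud1 and Syvn1 are highest in both naive libraries.

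Of the 4 genes of ER-associated degradation, 0, 1 and 1 were called higher and 2, 2 and 2 lower in Th1, Th2 and Th17 cells. Of all genes, 33.8%, 31.8% and 37.5% were higher and 33.5%, 38.7% and 29.8% lower, and 4 genes are too few to set these counts apart from those shares. Herpud1, on chr8:94386500-94395358, encodes an ER membrane protein of the HRD1 ubiquitin ligase complex and is a known target of the unfolded protein response. Its FPKM was 38.2 and 36.5 in the 2 naive samples, 23.3 and 23.4 for Th1 and 18.8 and 17.9 for Th2 cells, while Th17 cells had 18.1 and 19.6. All effector libraries were below both naive libraries, those of Th1 being higher than those of Th2 and Th17, which overlapped. Differences from naive cells were -0.66 ± 0.086 for Th1 cells, -0.99 ± 0.086 for Th2 cells and -0.95 ± 0.086 for Th17 cells (adjusted p = 0.000463, 5.13e-05 and 6.75e-05, limma).

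Edem1, on chr6:108828641-108859356, encodes a protein that directs misfolded glycoproteins to degradation. Its FPKM was 47.7 and 51.6 in the 2 naive samples, 45.0 and 46.6 for Th1 and 30.6 and 27.1 for Th2 cells, while Th17 cells had 33.9 and 38.1. Naive and Th1 libraries lay close together, and Th17 and then Th2 libraries were lower. The differences were -0.11 ± 0.11 for Th1 cells, -0.76 ± 0.11 for Th2 cells and -0.45 ± 0.11 for Th17 cells (adjusted p = 0.374, 0.000567 and 0.00752, limma), so the fall passed in Th2 and Th17 cells, though not in Th17 cells without Th17 replicate 1. Syvn1, on chr19:6046576-6053718, encodes the ubiquitin ligase HRD1. Its FPKM was 22.5 and 26.3 in the 2 naive samples, 17.1 and 20.0 for Th1 and 18.8 and 19.8 for Th2 cells, while Th17 cells had 18.6 and 21.4. The effector libraries were all below the naive libraries and overlapped each other. The differences of -0.38 ± 0.13 for Th1 cells, -0.32 ± 0.13 for Th2 cells and -0.28 ± 0.13 for Th17 cells passed in Th1 cells alone (adjusted p = 0.0304, 0.0546 and 0.0889, limma), and with the replicate block also in Th2 and Th17 cells (adjusted p = 0.00757 and 0.0145). The Th1 call of Syvn1 was lost without naive replicate 2 or Th1 replicate 1 and in the fit of 2 groups. Sel1l, the adaptor of HRD1, was the member of this role that was higher, by 0.18, 0.34 and 0.38 in Th1, Th2 and Th17 cells, of which Th2 and Th17 passed.

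All 7 genes of the translocon and of TRAP, which assists translocation, were called higher in all 3 subsets, where 24.8% of all genes were. This count was 5 without Th2 replicate 1 or Th17 replicate 2, where Sec61a1 and Sec61b did not pass, and 6 without either naive library, without Th2 replicate 2, with quantile normalization or in fits of 2 groups, where one of these 2 genes did not. Sec61b, on chr4:47474661-47483233, encodes the β subunit of the SEC61 channel and had the highest mean level in the role. Its FPKM was 114 and 93.6 in the 2 naive samples, 219 and 191 for Th1 and 185 and 136 for Th2 cells, while Th17 cells had 159 and 167. All effector libraries were above the naive libraries, and the 2 Th2 libraries differed enough to enclose both Th17 libraries. Differences were 0.98 ± 0.18 for Th1 cells, 0.61 ± 0.18 for Th2 cells and 0.65 ± 0.18 for Th17 cells (adjusted p = 0.00223, 0.017 and 0.0137, limma). Other genes hold 17.4% of the 50-base words of its transcripts, which makes its level less certain.

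Ssr3, on chr3:65379657-65392553, encodes the γ subunit of TRAP and had the largest difference in the role. FPKM was 46.2 and 35.3 in the 2 naive samples, 117 and 93.7 for Th1 and 164 and 179 for Th2 cells, while Th17 cells had 95.7 and 74.6. Both Th2 libraries were above all others, and the Th1 and Th17 libraries overlapped. The differences were 1.35 ± 0.19 for Th1 cells, 2.06 ± 0.19 for Th2 cells and 1.05 ± 0.19 for Th17 cells (adjusted p = 0.000607, 6.31e-05 and 0.00209, limma). Ssr2, the β subunit, was likewise highest in Th2 cells, its mean FPKM being 47.1 ± 3.93 for naive, 77.2 ± 3.99 for Th1, 112 ± 10.1 for Th2 and 68.6 ± 3.41 for Th17 cells (SD, n = 2). Sec61g, the γ subunit of the channel, rose by 1.83, 1.81 and 1.93 in Th1, Th2 and Th17 cells from a naive FPKM of 9.43. The pore subunit Sec61a1 rose by 0.56, 0.38 and 0.43, Ssr1 by 1.22, 1.17 and 0.87 and Ssr4 by 1.32, 1.08 and 0.87. Sec61g and Ssr2 share 14.8% and 11.0% of their 50-base words with other genes.

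The subunits of signal peptidase, which removes the signal peptide, differed among themselves. Spcs3, on chr8:54520433-54529998, rose in all 3 subsets. Its FPKM was 24.2 and 18.6 in the 2 naive samples, 57.0 and 45.1 for Th1 and 115 and 119 for Th2 cells, while Th17 cells had 54.4 and 42.0. The Th2 libraries had at least 2 times the FPKM of any other library, and the Th1 and Th17 libraries overlapped well above the naive ones. Its differences were 1.22 ± 0.18 for Th1 cells, 2.41 ± 0.18 for Th2 cells and 1.14 ± 0.18 for Th17 cells (adjusted p = 0.000941, 2.77e-05 and 0.0013, limma).

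Sec11c, on chr18:65800578-65817657, encodes a catalytic subunit and had the highest mean level in this role. FPKM values were 72.6 and 56.9 in the 2 naive samples, 85.3 and 73.5 for Th1 and 97.2 and 83.4 for Th2 cells, while Th17 cells had 66.7 and 67.3. The Th1 and Th2 libraries overlapped each other and were above both naive libraries. Both Th17 libraries lay between the naive libraries and below all Th1 and Th2 libraries. The differences were 0.30 ± 0.15 for Th1 cells, 0.48 ± 0.15 for Th2 cells and 0.059 ± 0.15 for Th17 cells (adjusted p = 0.118, 0.0234 and 0.743, limma), of which that of Th2 passed, though not without naive replicate 2 or Th2 replicate 1 or in the fit of 2 groups. With the replicate block Th1 passed too (adjusted p = 0.035). Spcs2 was called higher in Th1 cells only, by 0.44 (adjusted p = 0.0418, limma). This call was lost without any 1 library other than naive replicate 1, and also without the filter on low values, with quantile normalization and in the fit of 2 groups. Spcs1 was not called in any subset, with differences of 0.43, 0.27 and 0.38, although with the block it passed in Th1 and Th17 cells (adjusted p = 0.00873 and 0.0148). Glt8d1 overlaps 16.3% of the exon bases of Spcs1.

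The subsets were then compared with each other, which asks whether the effector programs differ in this pathway beyond the shared difference from naive cells. Between Th1 and Th2 cells, 10 genes were called higher and 7 lower in Th1, where 27.4% and 16.9% of all genes were. Both shares were near those of all genes. Without Th1 replicate 1, Th1 replicate 2 or Th2 replicate 2 these totals of 17 fell to 9, 8 and 8. Between Th17 and Th2 cells, 1 gene was called higher and 8 lower in Th17, against 31.7% and 12.0% of all genes. Between Th1 and Th17 cells, 6 were called higher and 0 lower in Th1 (limma; against 9.17% and 16.0% of all genes), and at an unadjusted p under 0.05 the lower count was 2. Without Th1 replicate 2, and without Th17 replicate 1, the 6 became 2. With the replicate block the totals were 17 between Th17 and Th2 and 11 between Th1 and Th17 cells. In all, 19 of the 34 genes were called in at least 1 of these comparisons and 15 in none, where 59.9% of all genes were called in at least 1, so these genes were not called more often than genes at large. Without Th1 replicate 2 or Th2 replicate 2 the 19 became 13.

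Th2 cells were called higher than both other subsets for 6 genes, where 8.94% of all genes were: Calr, Pdia6, P4hb, Ssr2, Ssr3 and Spcs3. The 6 became 3 without Th1 replicate 1 (P4hb, Ssr3 and Spcs3) or Th2 replicate 2 (P4hb, Ssr2 and Spcs3). P4hb differed most, Th1 against Th2 being -1.72 ± 0.14 (SE, adjusted p = 0.000123) and Th17 against Th2 -1.29 ± 0.14 (SE, adjusted p = 0.000636), by limma. Spcs3 followed, with -1.19 ± 0.18 (SE, adjusted p = 0.00243) and -1.27 ± 0.18 (SE, adjusted p = 0.00216). Ssr3 differed by -0.71 ± 0.19 (SE, adjusted p = 0.0207) and -1.01 ± 0.19 (SE, adjusted p = 0.0056). For Pdia6, Ssr2 and Calr the differences from Th2 were -0.44, -0.53 and -0.44 in Th1 and -0.69, -0.69 and -0.49 in Th17 cells. In all 6 genes both Th2 libraries lay above the 4 other effector libraries, much as calls against both subsets require. Over the 34 genes such separation held for 8 that were highest in Th2, 11 in Th1 and 0 in Th17 cells. The share of all genes with it was not counted, so these counts cannot be read as a trait of the 34 genes. Hsp90b1 was lower in Th17 than in Th2 cells, by -0.56 ± 0.11 (SE, adjusted p = 0.00697), whereas its difference of -0.27 between Th1 and Th2 did not pass (adjusted p = 0.0875; 0.0347 with the replicate block). Canx was lower in Th1 than in Th2 cells, by -0.37 ± 0.11 (SE, adjusted p = 0.0275).

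Th1 cells were called higher than both other subsets for 5 genes, where 7.06% of all genes were: Dnajb11, Dnajc3, Pdia3, Eif2ak3 and Herpud1. Without Th1 replicate 2 or Th17 replicate 1 the 5 became 1, Dnajb11, and without Th17 replicate 2 they became 3. Dnajb11 differed most, by 0.97 ± 0.12 (SE, adjusted p = 0.000804) from Th2 and 0.80 ± 0.12 (SE, adjusted p = 0.00312) from Th17 cells, by limma. Eif2ak3 differed by 0.89 ± 0.13 (SE, adjusted p = 0.00194) and 0.67 ± 0.13 (SE, adjusted p = 0.0107). Dnajc3 and Herpud1, which were lower than naive in every subset, were least reduced in Th1 cells, their differences from Th2 being 0.56 and 0.33. Pdia3 was 0.54 above Th2 and 0.47 above Th17 cells. Further genes higher in Th1 than in Th2 cells were Manf, Ern1, Atf6, Edem1 and Spcs2, by 0.39, 0.68, 0.46, 0.65 and 0.56.

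Th17 cells had the lower Xbp1 level of the effector subsets, with Th17 against Th2 -1.14 ± 0.11 (SE, adjusted p = 0.000479) and Th1 against Th17 1.04 ± 0.11 (SE, adjusted p = 0.00087), by limma. The Th1 and Th2 means differed by -0.10 (adjusted p = 0.495). Of the 34 genes, 0 were called higher in Th17 cells than in both other subsets (limma; 0 also at an unadjusted p under 0.05), where 8.18% of all genes were. Ern1 alone was lower in Th2 cells than in both others, where 19.3% of all genes were, with Th17 against Th2 0.69 ± 0.18 (SE, adjusted p = 0.0218). That count was 0 with median scaling and without any 1 of the Th1 or Th2 libraries or Th17 replicate 2, and 5 with the replicate block. With the replicate block, Th17 cells were also called lower than Th2 cells for Hyou1, Pdia4, Ssr1 and Sec11c (adjusted p = 0.0251, 0.0455, 0.027 and 0.0148) and higher for Atf6, Eif2ak3, Edem1 and Spcs2 (adjusted p = 0.0316, 0.0452, 0.0393 and 0.0233). Between Th1 and Th17 cells the block added Hsp90b1, Creld2, Edem1 and Ssr1, higher in Th1 (adjusted p = 0.0393, 0.0461, 0.0428 and 0.0231), and P4hb, lower in Th1 (adjusted p = 0.0262).

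Some of these calls did not depend on a single library or setting. Between Th1 and Th2 cells, 6 of the 17 stayed called under every alternative and without each library, namely Dnajb11, Dnajc3, P4hb, Eif2ak3, Edem1 and Spcs3. Between Th17 and Th2 cells 7 of 9 did, namely Hsp90b1, Pdia6, P4hb, Xbp1, Ssr2, Ssr3 and Spcs3. Between Th1 and Th17 cells 2 of 6 did, Dnajb11 and Xbp1. Against naive cells the numbers were 26 of 30 in Th1, 23 of 30 in Th2 and 21 of 26 in Th17 cells.

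Other genes of the pathway were counted by lists, to be read against the shares of all genes tested in Th1, Th2 and Th17 cells, which were 33.8%, 31.8% and 37.5% higher and 33.5%, 38.7% and 29.8% lower. Of 10 subunits of oligosaccharyltransferase, which attaches N-linked glycans, 8, 8 and 9 were called higher and 1, 0 and 1 lower in Th1, Th2 and Th17 cells, with median differences of 0.94, 0.94 and 0.57. The largest difference was that of Krtcap2, a small subunit of the complex, whose FPKM was 130.3 and 106 in the 2 naive samples, 402 and 447 for Th1 and 364 and 361 for Th2 cells, while Th17 cells had 242 and 289. All effector libraries were above the naive libraries, and its difference in Th1 cells was 1.84 ± 0.15 (SE, adjusted p = 4.03e-05) by limma. Of 21 genes of the COPII coat and cargo receptors, which carry folded proteins out of the ER, 13, 14 and 12 were higher and 3, 3 and 1 lower. Kdelr3, a receptor that returns ER residents, was listed at 0 in both naive libraries and had FPKM values of 1.72 and 1.07 for Th1 and 15.8 and 16.4 for Th2 cells, while Th17 cells had 4.05 and 4.42. Its Th2 libraries were the highest, and between Th17 and Th2 cells the difference was -1.71 ± 0.14 (SE, adjusted p = 0.000214).

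Of 15 tested genes among other unfolded protein response and redox genes, 9, 8 and 9 were higher and 4, 6 and 6 lower. Ero1l, the oxidase that recharges protein disulfide isomerase, had an FPKM of 11.8 and 8.14 in the 2 naive samples, 164 and 139 for Th1 and 419 and 502 for Th2 cells, while Th17 cells had 127 and 111. Both Th2 libraries were above all others, as they were for P4hb, and the difference of Th2 from naive cells was 5.41 ± 0.19 (SE, adjusted p = 7.39e-07) by limma. Th1 against Th2 cells it was -1.60 ± 0.19 (SE, adjusted p = 0.000751). Of 9 tested genes of the PERK-ATF4 branch, 4, 5 and 3 were higher and 2, 3 and 3 lower, which in Th17 cells is near the shares of all genes. Atf3, a stress-induced transcription factor, had an FPKM of 0.123 and 0.0495 in the 2 naive samples, 13.4 and 10.6 for Th1 and 14.9 and 15.1 for Th2 cells, while Th17 cells had 22.4 and 26.4. It was highest in both Th17 libraries, where its difference from naive cells was 4.54 ± 0.13 (SE, adjusted p = 3.74e-07). Asns and Sesn2 were also called higher in all 3 subsets. In Th1, Th2 and Th17 cells Asns rose by 3.03, 3.58 and 3.16, and Sesn2 by 2.33, 1.68 and 1.80. Ppp1r15a and Nfe2l2 of this list went the other way. In Th1, Th2 and Th17 cells the differences were -3.07, -2.37 and -2.82 for Ppp1r15a and -1.93, -1.98 and -0.94 for Nfe2l2. Atf4 was not called against naive cells in any subset.

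Of 13 other genes of degradation and glucosidases, 4, 4 and 5 were higher and 3, 3 and 1 lower, and the shares higher were near those of all genes. Edem2, which trims mannose from glycoproteins, had an FPKM of 27.5 and 27.3 in the 2 naive samples, 77.4 and 79.3 for Th1 and 49.2 and 48.9 for Th2 cells, while Th17 cells had 91.2 and 98.9. In contrast to Edem1 it was above the naive libraries in all effector libraries, with a difference of 1.76 ± 0.086 (SE, adjusted p = 3.3e-06) in Th17 cells. Of 14 genes of signal recognition and targeting, 5, 6 and 4 were higher and 4, 2 and 3 lower, again not far from all genes in the share higher. Srp72, a protein of the signal recognition particle, had an FPKM of 30.5 and 31.4 in the 2 naive samples, 61.7 and 67.5 for Th1 and 60.6 and 78.2 for Th2 cells, while Th17 cells had 57.6 and 60.2 and a difference of 1.13 ± 0.13 (SE, adjusted p = 0.000233) in Th2 cells. Of 16 chaperones of the cytosol, which are outside the ER, 13, 11 and 13 were higher and 2, 2 and 2 lower, with medians of 0.73, 0.49 and 0.69. Tcp1, a subunit of the cytosolic chaperonin, had an FPKM of 70.5 and 64.0 in the 2 naive samples, 213 and 216 for Th1 and 240.2 and 250.2 for Th2 cells, while Th17 cells had 229 and 229.5 and a difference of 1.85 ± 0.096 (SE, adjusted p = 4.03e-06) in Th2 cells. The share of cytosolic chaperones called higher was thus near that of the ER genes, and no difference between the lists was tested.

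**Figure D5:**
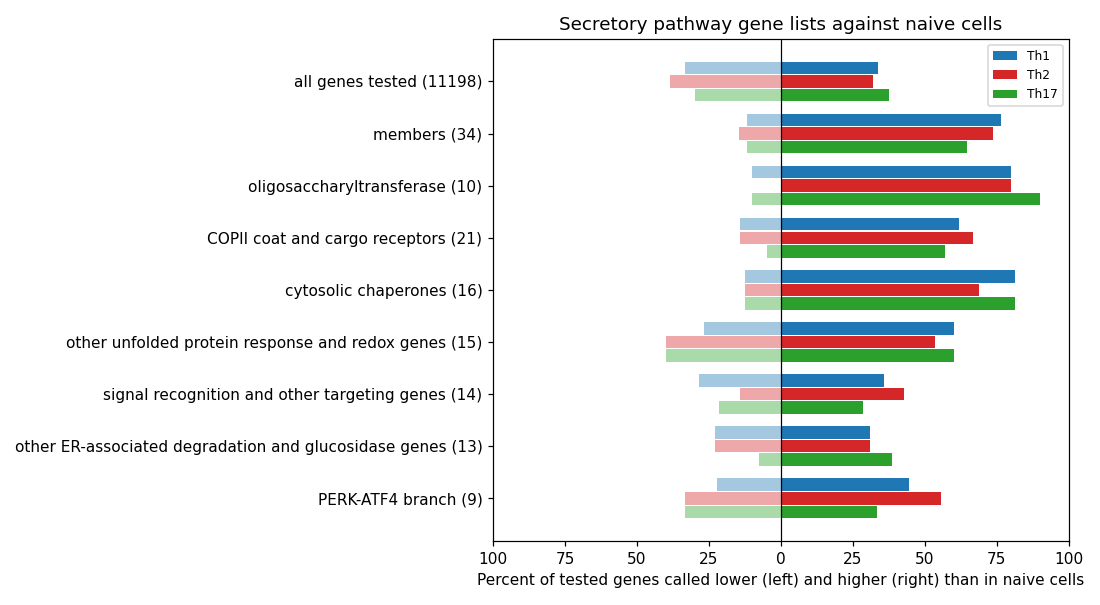
Percent of the tested genes of each list (number in brackets) called higher (right) or lower (left, paler) than in naive cells in Th1, Th2 and Th17 cells. The 34 ER genes, oligosaccharyltransferase and the cytosolic chaperones extend farther right than all genes tested, and the PERK-ATF4 branch and the targeting genes lie nearer to it.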

How the data were processed

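The authors prepared RNA with TRIzol, sequenced it, aligned the reads to mm10 with Bowtie 0.12.8 and TopHat 1.3.2, and deposited FPKM with its confidence interval from Cufflinks 2.0.2 (versions per the submitters' processing notes). The annotation is not given in the sources used here. The methods name an unstranded kit and the labels a stranded one, so overlapping genes could share reads. Rows of a symbol were summed (23284 genes), and 11198 with a mean FPKM of at least 1 were tested. log2(FPKM + 1) was fitted with limma 3.58.1 in R 4.3.3 (lmFit, eBayes with trend, all 8 libraries, two-sided, Benjamini-Hochberg) and tested on simulated data. The members and lists were chosen with earlier results of these data known. Values in every library are given, in each role, for the member with the highest mean, the one with the largest difference from naive, those that fell or that differed by at least 1 between subsets, and for the leading gene of each further list. Replicate numbers come from the labels, and same-numbered libraries deviated together (correlations of replicate differences 0.138 to 0.294 over 6 pairs of groups), so a fit with this block is given where it changed a call. The alternatives were a pseudocount of 0.1, other filters and scalings, fits of 2 groups, no trend, other treatments of repeated symbols and estimation status, the block and each library left out. Sequences are from RefSeq (GRCm38.p6). Shared 50-base words were counted in GENCODE M21 transcripts.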

Additional observations from a re-analysis of the deposited data

Results flagged for a closer look

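The difference between effector subsets, tested itself with limma, drew attention in 19 of the 34 genes. Of all genes tested, 59.9% were called in at least 1 of these comparisons, so 19 is no excess. The calls given here for Manf, Canx, Pdia3, Calr, Ern1, Atf6, Herpud1 and Spcs2 were lost when some single library was left out. For each gene the largest difference past the threshold is given on the log2(FPKM + 1) scale. Among the luminal chaperones, Th17 against Th2 cells was -0.56 for Hsp90b1, and Th1 against Th2 cells was 0.97 for Dnajb11, 0.56 for Dnajc3 and 0.39 for Manf. Among the lectin chaperones and isomerases, Th1 against Th2 cells was -1.72 for P4hb, -0.37 for Canx and 0.54 for Pdia3, and Th17 against Th2 cells was -0.49 for Calr and -0.69 for Pdia6. Among the sensors and XBP1, Th17 against Th2 cells was 0.69 for Ern1 and -1.14 for Xbp1, and Th1 against Th2 cells was 0.46 for Atf6 and 0.89 for Eif2ak3. In ER-associated degradation, Th1 against Th2 cells was 0.33 for Herpud1 and 0.65 for Edem1. In the translocon and TRAP, Th17 against Th2 cells was -0.69 for Ssr2 and -1.01 for Ssr3. In signal peptidase, Th1 against Th2 cells was 0.56 for Spcs2, and Th17 against Th2 cells was -1.27 for Spcs3.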

How the results depend on the processing

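For the 14 genes given with every library value and for the other called differences, 2700 single-gene values were computed under the alternatives. Direction and call were the same in 2526, while 118 no longer passed, 30 newly passed and 26 changed sign. The counts of genes called against naive cells stayed within 1.5 times their value under every alternative and without each library, at 27 to 29 in Th1, 24 to 30 in Th2 and 23 to 26 in Th17 cells in the fits with a library left out. Between Th1 and Th2 cells the total was 8 to 17, with 4 to 10 higher and 3 to 7 lower, the lowest totals being those without Th1 replicate 2 and without Th2 replicate 2. Between Th17 and Th2 cells 8 to 10 were called, 0 to 1 of them higher, and the count higher was 0 without Th2 replicate 1, Th2 replicate 2 or Th17 replicate 2. Between Th1 and Th17 cells 2 to 7 were called, all of them higher in Th1.

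With the replicate block, 17 genes were called between Th17 and Th2 cells, 5 of them higher, and 11 between Th1 and Th17 cells, 10 higher and 1 lower. Apart from the calls given beside the results, the block changed no other call of the 34 genes and ended none. Median scaling gave 0 higher between Th17 and Th2 cells and 12 between Th1 and Th17 cells, all 12 higher. It moved the median difference of all genes tested from -0.11 to 0.0016 between Th2 and naive cells and from 0.18 to 0.025 between Th17 and Th2 cells, while quantile normalization set that of Th1, Th2 and Th17 against naive cells to -0.13, -0.13 and -0.12. Hspa5 in Th17 cells no longer passed with quantile normalization. The cause of these changes was not tested.

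The values that changed sign were small and passed in neither fit. With median scaling and quantile normalization they were 0.031 and 0.075 for Dnajb9 between Th1 and Th17 cells, and between Th17 and Th2 cells -0.040 and -0.040 for Dnajc3, -0.14 and -0.13 for Herpud1, -0.13 and -0.11 for Syvn1, and -0.14 and -0.13 for Sec61b. With quantile normalization alone they were -0.028 for Sdf2l1 between Th1 and Th2 cells and -0.11 for Sec11c between Th17 and naive cells. With a library left out, the ranges between Th17 and Th2 cells were -0.22 to 0.020 for Dnajb9, -0.43 to 0.020 for Sdf2l1, -0.018 to 0.093 for Herpud1, -0.053 to 0.14 for Syvn1 and -0.18 to 0.26 for Sec61b. Between Th1 and Th2 cells they were -0.12 to 0.33 for Sdf2l1, -0.22 to 0.015 for Xbp1 and -0.17 to 0.047 for Syvn1. Between Th1 and Th17 cells they were -0.17 to 0.077 for Dnajb9, -0.21 to 0.0037 for Syvn1 and -0.099 to 0.27 for Spcs3, and for Sec11c between Th17 and naive cells -0.11 to 0.23. These ranges also hold values that kept the sign of the fit to all 8 libraries, such as -0.43 for Sdf2l1 between Th17 and Th2 cells. The statement that sign changes were small and did not pass does not cover those values.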

Other observations

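Replicate 2 of a group differed from replicate 1 in a direction that depended on the gene. Spcs1, Spcs2, Sec61g, Ssr1 and Xbp1 had a lower FPKM in replicate 2 in all 4 groups, and Hyou1, Dnajc3, Pdia4, Ern1, Atf6, Eif2ak3, Syvn1 and Sec61a1 a higher one. Over all 11198 genes tested, 12.6% were lower and 20.2% higher in replicate 2 in all 4 groups. The ratio of replicate 2 to replicate 1 over the 34 genes ran from 0.660, for Dnajb9 in naive cells, to 1.73, for Ern1 in naive cells. In the signal peptidase role it ran from 0.686 to 1.04.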
